A study of Mus musculus with 2 samples.

Results

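The genes described here encode 7 subunits of the GABA-A receptor, the chloride channel opened by the transmitter GABA. They are the alpha subunit genes Gabra2, Gabra3, Gabra4, Gabra5 and Gabra6 and the beta subunit genes Gabrb1 and Gabrb2, taken by their symbols in the platform annotation. All 7 had a value, among 19503 genes measured in all. Subunit genes of the family that are not named below were not analysed here.

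GABA-A receptors are rings of subunits, most of which combine alpha and beta subunits with a gamma or delta subunit. The GABA binding site lies between an alpha and a beta subunit, and the alpha subunit sets much of the receptor's kinetics and drug response. In the cerebellum, granule neurons take up Gabra6 as they mature, and the alpha6 subunit is found there in synaptic receptors and, with the delta subunit, in receptors outside synapses. Bergmann glia of young animals also carry GABA-A receptors, and Purkinje cells receive GABA from basket and stellate interneurons.

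RNA came from pooled cerebella of Tg(Pcp2-L10a-Egfp) mice at postnatal day 7. In these mice the promoter of Pcp2, a Purkinje cell gene, drives ribosomal protein L10a tagged with green fluorescent protein. Translating ribosome affinity purification (TRAP) recovers the tagged ribosomes and their mRNA on beads carrying antibodies to the tag. The TRAP sample is the RNA eluted from the beads, and the unbound sample is the RNA that the beads left behind. Both fractions share the transgene and the age, and the number of mice pooled is not given in the sources used here. A single array was run per fraction, so no value below has a replicate error, no test was possible and no p-value is given. A difference is the log2 value in TRAP minus the log2 value in unbound RNA, and its size was judged by a fixed rule of 2-fold (1 on the log2 scale). In such bulk RNA, fewer cells of a type and less RNA per cell cannot be told apart. Nor can the cell type of origin, association with ribosomes and RNA carried over on the beads be told apart in a difference between the fractions.

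The arrays had median values of 6.92 (TRAP) and 7.25 (unbound) over 22097 probe sets, with a Pearson r of 0.94 across probe sets, which are not independent replicates. A gene was counted as above the floor when either array exceeded 7.08, the median of all values of both arrays together; the table has no detection calls. The label of the TRAP sample was checked on Purkinje cell markers: 16 of 20 listed genes had a value, all 16 were higher in TRAP, and their differences ran from 0.49 to 3.17. Of the 10524 genes above the floor, 4644 were higher in TRAP by any amount. By 2-fold or more, 8 of the 16 markers were higher, against 8.11% of the genes above the floor. Pcp2 itself read 12.98 in TRAP and 11.65 in unbound, and Rpl10a, the gene of the tagged protein, 12.67 in TRAP and 12.13 in unbound.

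To show sequence context for some of the subunit genes, 3 upstream regions are printed here, each the 250 bases before the annotated start from RefSeq (GRCm38.p6), read 5′ to 3′ on the gene's own strand. Gabra6 is shown for its granule cell role, and Gabra4 and Gabrb1 because they are adjacent genes on opposite strands whose annotated 5′ ends overlap. The printed region of each of that pair therefore lies within the other gene. The Gabra6 region lies at chr11:42321073-42321322 on the minus strand, and its capitals mark TGCCAA, the reverse complement of TTGGCA, a short sequence that nuclear factor I proteins bind. The Gabra4 region lies at chr5:71658309-71658558 on the minus strand and the Gabrb1 region at chr5:71657671-71657920 on the plus strand, and their capitals mark CG dinucleotides.
Gabra6: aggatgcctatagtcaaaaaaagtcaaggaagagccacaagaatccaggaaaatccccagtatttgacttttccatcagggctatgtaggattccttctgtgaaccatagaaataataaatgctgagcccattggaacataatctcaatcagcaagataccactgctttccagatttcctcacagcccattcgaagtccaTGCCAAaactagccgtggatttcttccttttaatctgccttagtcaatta
Gabra4: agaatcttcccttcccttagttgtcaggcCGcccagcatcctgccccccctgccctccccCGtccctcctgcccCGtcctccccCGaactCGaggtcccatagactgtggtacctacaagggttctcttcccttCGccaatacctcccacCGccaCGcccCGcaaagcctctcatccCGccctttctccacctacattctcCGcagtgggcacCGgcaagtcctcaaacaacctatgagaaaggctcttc
Gabrb1: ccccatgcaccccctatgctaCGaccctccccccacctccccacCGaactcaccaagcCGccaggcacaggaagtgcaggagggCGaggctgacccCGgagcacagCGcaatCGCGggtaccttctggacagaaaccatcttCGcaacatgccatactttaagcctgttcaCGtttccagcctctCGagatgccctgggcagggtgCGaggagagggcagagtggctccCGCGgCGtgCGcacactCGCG

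The Gabra6 region held 2 CG dinucleotides and 40.8% G and C, against 12 and 61.2% in the Gabra4 region and 18 and 64.4% in the Gabrb1 region. The medians over 32851 RefSeq upstream regions of this length were 6 CG dinucleotides and 52.4% G and C. The 7 genes had 11 such regions, because several starts are annotated for Gabra3, Gabrb1 and Gabrb2. Their G and C content ran from 36.8% to 70.0%, so base composition was not a shared property. Searching both strands, TTGGCA occurred in the Gabra6 region, with its first base 50 bases before the start, and in none of the other 10 regions. It was present in 12.3% of all upstream regions. The letters GGGCGG occurred in Gabra2, Gabra4 and the first Gabrb2 region (32.7% of all regions), TATAAA in both Gabra3 regions, which overlap each other, and the first Gabrb2 region (12.4%), and CANNTG in Gabra2, Gabra5 and the first Gabrb2 region (66.2%). None of these matches overlapped a match to another motif, and no motif was common to all 7 genes.

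All 7 subunit genes were lower in TRAP than in unbound RNA, and 6 of them by at least 2-fold. Among the 10524 genes that passed the floor, 55.8% were lower in TRAP by any amount and 18.6% by at least 2-fold, while 8.11% were 2-fold or more higher in TRAP. As listed, the differences ran from 1.98-fold for Gabrb2 to 8.09-fold for Gabrb1. Both values of Gabra6 (6.89-fold) and Gabrb2 lay above the floor. The TRAP values of the other 5 genes lay below it, where the table does not show whether a signal is above background, so their folds and their order are uncertain. The median difference of the 7 genes was -2.23, against -0.13 for all genes above the floor. Reaching the floor depended on the unbound array for 5 of the 7 genes. A gene that passes only on the array where it is high has to differ, so these counts describe the genes and carry no further weight. When the floor was set on the mean of both arrays, 6 of the 7 genes remained and 5 of them were at least 2-fold lower in TRAP, against 16.8% of the 9734 genes that passed. Gabrb1 was the gene left out.

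**Figure D1:**
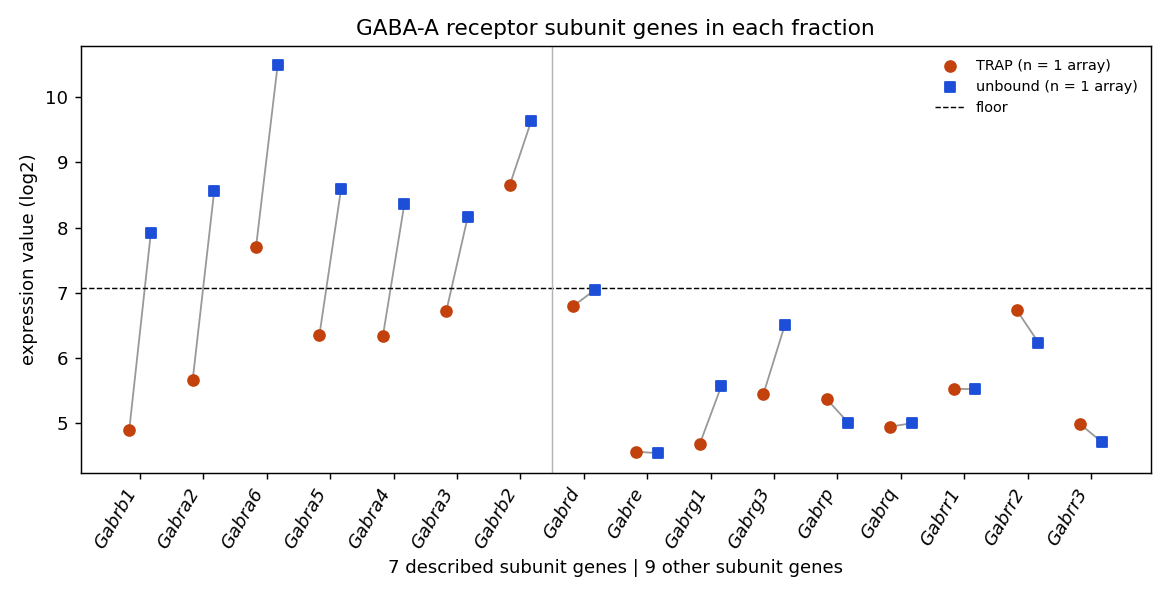
Expression values (log2) of the 7 described subunit genes, left of the vertical line, and of 9 other subunit genes, right of it. Circles are the TRAP array and squares the unbound array, 1 array each, and the dashed line is the floor of 7.08; the TRAP circle lies below the unbound square for each of the 7 genes, and all 9 other genes lie under the floor.

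Among the alpha subunit genes, Gabra6, the subunit gene of granule neurons, read 7.71 in TRAP and 10.49 in unbound RNA. This is a difference of -2.78, or 6.89-fold, and both values lay above the floor. Relative to all genes on the same array, Gabra6 stood at percentile 60.7 in TRAP and at percentile 92.6 in unbound. Only 66 of the 10524 genes above the floor, 0.627%, had a lower difference. Probe sets respond differently to equal amounts of RNA, so a percentile places a gene among signals and does not order subunits by abundance.

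Gabra2 encodes a subunit that is common in the young brain and has also been found in Bergmann glia. It read 5.66 in TRAP and 8.57 in unbound, a difference of -2.91 or 7.50-fold. Its unbound value stood 1.49 above the floor and its TRAP value lay 1.42 below it, so the fold is uncertain. In the ranking of signals it stood at percentile 30.0 in TRAP and 67.9 in unbound.

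Gabra5 encodes a subunit best known from receptors outside synapses in the hippocampus. It read 6.36 in TRAP and 8.59 in unbound, a difference of -2.23 or 4.70-fold. Gabra4, whose subunit pairs with delta in receptors of the thalamus and dentate gyrus, read 6.34 in TRAP and 8.37 in unbound. The difference of Gabra4 was -2.03, or 4.10-fold. For both genes the unbound value was above the floor and the TRAP value below it, at percentiles 42.1 (Gabra5) and 41.8 (Gabra4) of the TRAP array.

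Gabra3, an X-linked subunit gene more abundant in immature than in mature forebrain, was lower in TRAP as well. It read 6.72 in TRAP and 8.17 in unbound, a difference of -1.45 or 2.74-fold. Its TRAP value was 0.36 below the floor, the closest of the 5 TRAP values that lay under it.

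The beta subunit genes, whose products form the other face of the GABA binding site, were both lower in TRAP. Gabrb1 read 4.90 in TRAP and 7.91 in unbound, a difference of -3.02 or 8.09-fold. Its TRAP value lay 2.18 below the floor, at percentile 16.6 of that array. Its unbound value stood 0.84 above the floor, the least of the 7 genes, so the fold is uncertain and its place among the differences is too.

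Gabrb2 encodes the beta subunit that is widespread in the adult brain. Averaged over 3 probe sets, it read 8.65 in TRAP and 9.64 in unbound, a difference of -0.99 or 1.98-fold. Both values lay above the floor, at percentile 72.4 in TRAP and 83.3 in unbound, and Gabrb2 was the 1 gene of the 7 that fell short of 2-fold. Of all genes above the floor, 18.8% had a lower difference.

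The 3 probe sets of Gabrb2 did not give the same size. One read 9.03 in TRAP and 9.69 in unbound (1.59-fold), another 8.87 in TRAP and 10.02 in unbound (2.21-fold), and the remaining one 8.06 in TRAP and 9.20 in unbound (2.22-fold). All of them were lower in TRAP, and 2 of the 3 passed 2-fold. With the probe set of the highest mean signal in place of the average, the difference of Gabrb2 was -1.15 and all 7 genes were at least 2-fold lower in TRAP. These probe sets measure the same RNA on the same arrays and are not replicates. The other 6 genes have 1 probe set each, so no such comparison exists for them.

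**Figure D2:**
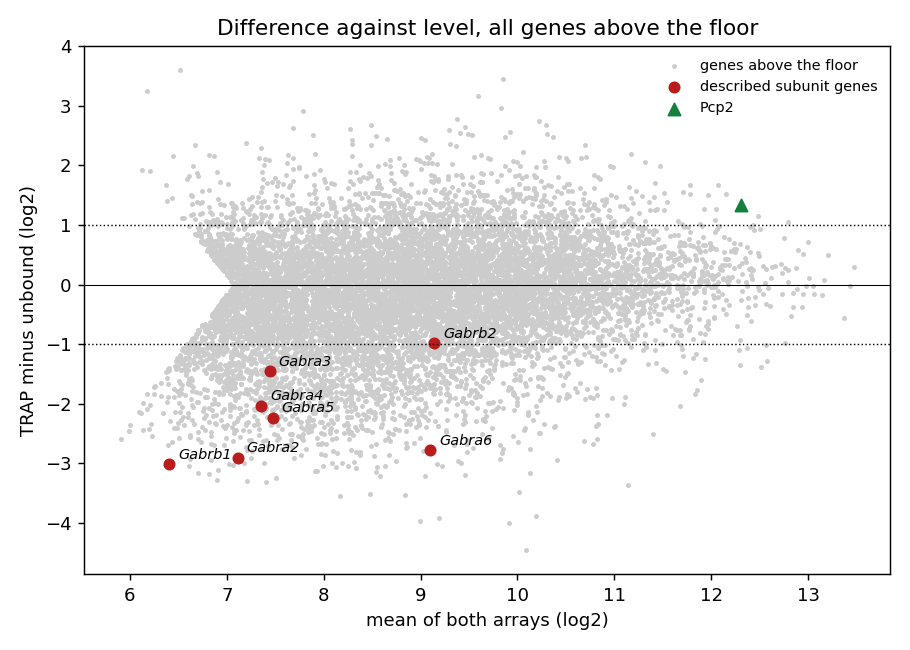
Difference (TRAP minus unbound, log2) against the mean of both arrays (log2) for the 10524 genes above the floor in grey, the 7 subunit genes in red and Pcp2 as a green triangle. Dotted lines mark 2-fold; the subunit genes lie between -3.02 and -0.99, below 0, and Pcp2 at 1.34.

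The size of these differences moved with the scaling of the arrays, and the direction did not. Subtracting each array's median raised every difference by 0.33, and the median of genes above the floor went with it, to 0.25 as against -0.13 on the deposited scale. With the medians subtracted, 1723 genes passed 2-fold upwards in TRAP and 1215 downwards, while the deposited scale gave 853 and 1955. Quantile normalization gave 1262 and 1439. Under the 3 other scalings the 7 subunit genes stayed lower in TRAP, between -3.01 and -0.66, and 6 of them stayed at least 2-fold lower. The share of all genes at least 2-fold lower was then 11.6% with the medians subtracted, 13.7% after quantile normalization and 16.5% after removal of a loess trend.

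**Figure D3:**
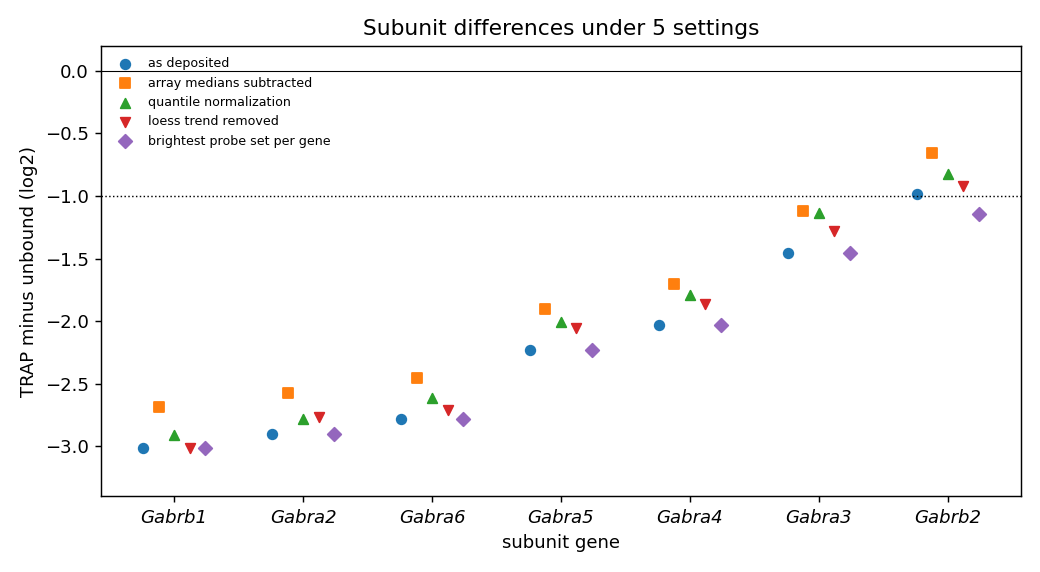
Difference (TRAP minus unbound, log2) of each subunit gene under 5 settings, 1 symbol per setting, with the dotted line at 2-fold. Every symbol lies below 0; Gabrb2 lies above the dotted line in 4 settings and below it, at -1.15, with the brightest probe set.

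Of the 16 subunit genes of the family with a value, the 7 described here were above the floor and the 9 others were not. Gabrd, encoding the delta subunit that partners alpha6 in granule neurons, came closest, with 6.79 in TRAP and 7.04 in unbound, 0.04 under the floor. The gamma subunit genes Gabrg1 and Gabrg3 were lower in TRAP, with 4.68 and 5.57 (TRAP and unbound) for Gabrg1, a difference of -0.89, and 5.44 and 6.51 for Gabrg3, a difference of -1.07. Both lie on the table at signals where a difference is uncertain. The rho subunit genes, known from the retina, read 5.51 on both arrays for Gabrr1, 6.73 in TRAP and 6.24 in unbound for Gabrr2, and 4.98 in TRAP and 4.71 in unbound for Gabrr3. Gabre, Gabrp and Gabrq, encoding the epsilon, pi and theta subunits, read between 4.56 and 5.37 in TRAP and between 4.54 and 5.00 in unbound. The sign of the difference depended on the scaling for Gabrd, Gabre, Gabrq and Gabrr1.

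Genes for the anchoring and traffic of GABA-A receptors included some higher and some lower in TRAP. Of 24 listed genes 22 had a value, and all passed the floor, with 2 higher in TRAP by 2-fold or more, 5 lower by 2-fold or more and 15 in between. These counts are near the shares of all genes above the floor, 8.11% higher and 18.6% lower. Their median difference was 0.01, or 0.34 with the array medians subtracted. Iqsec3, an exchange factor of inhibitory postsynapses that binds gephyrin, read 10.76 in TRAP and 9.23 in unbound. Dmd, encoding dystrophin, which is found at inhibitory synapses of Purkinje cells, read 8.95 in TRAP and 7.61 in unbound.

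At the other end of that list stood Plcl2 and Plcl1, whose phospholipase-C-related products bind beta subunits and the receptor-associated protein GABARAP. Plcl2 read 6.75 in TRAP and 9.26 in unbound, a difference of -2.51, and Plcl1 read 7.10 in TRAP and 9.16 in unbound, a difference of -2.06. Gphn, the gene of the scaffold protein gephyrin itself, was named here after its value was seen: it read 10.69 in TRAP and 10.32 in unbound, a difference of 0.36. The anchoring genes spanned -2.51 to 1.53, while the 7 subunit genes spanned -3.02 to -0.99.

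Most markers of other cerebellar cells were lower in TRAP as well. Of the postmitotic granule neuron markers, 15 of 16 were above the floor. All 15 were at least 2-fold lower in TRAP, against 18.6% of all genes above the floor, and their median was -1.69. With the array medians subtracted 11 of the 15 were, against 11.6% of all genes, and 14 after quantile normalization or removal of the loess trend. The log2 of the summed signals of these markers (all 16) was 13.77 in TRAP and 15.36 in unbound. Cbln3, a cerebellin gene of granule neurons, read 7.11 in TRAP and 10.15 in unbound. For progenitors of granule neurons, 7 of 12 were at least 2-fold lower, with a median of -1.68 and summed signals of 12.67 in TRAP and 13.84 in unbound.

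Markers of astrocytes and Bergmann glia were at least 2-fold lower in TRAP in 14 of 16 cases, with a median of -2.07 and summed signals of 13.26 in TRAP and 14.71 in unbound. The share of all genes above the floor was 18.6%, the background for the other counts here too. With the array medians subtracted 12 of these 16 markers were 2-fold lower, and 15 after quantile normalization or removal of the loess trend. Gfap, the intermediate filament gene of astrocytes, read 7.23 in TRAP and 11.14 in unbound. Hopx went the other way, with 10.36 in TRAP and 9.42 in unbound, a difference of 0.93. It was at least 2-fold higher in TRAP with the array medians subtracted (1.27) and after quantile normalization (1.00). For the oligodendrocyte lineage, 11 markers passed the floor and all 11 were at least 2-fold lower, with a median of -1.77 and summed signals, over the 12 with a value, of 11.30 in TRAP and 13.14 in unbound. With the array medians subtracted 10 of the 11 were. Some of the 11 passed the floor on the unbound array only, among them Enpp6 (5.08 in TRAP, 8.13 in unbound) and Mog (5.89 in TRAP, 7.15 in unbound). Such genes have to be lower in TRAP, so the count depends in part on the floor. The lists of granule neuron progenitors, astrocytes, interneurons, nuclear neurons and microglia also held markers that passed on the unbound array only. For inhibitory interneurons, 9 markers passed the floor, of which 6 were lower in TRAP and 2 higher by 2-fold or more. Of all genes above the floor, 8.11% were 2-fold or more higher. With the array medians subtracted 5 interneuron markers were lower and 2 higher. The higher pair was Pvalb and Cacna2d2, both of which Purkinje cells express too, and with all 11 measured genes the summed signals were 13.27 in TRAP and 12.84 in unbound. The 3 markers of unipolar brush cells and nuclear neurons above the floor were at least 2-fold lower, with summed signals over 4 genes of 8.97 in TRAP and 11.37 in unbound. Few microglia and endothelial markers were above the floor, 3 of 11 and 1 of 8. Their summed signals were 9.42 in TRAP and 10.18 in unbound for microglia, and 9.17 in TRAP and 9.90 in unbound for endothelium. These sums run over all 11 and all 8 genes, most of them under the floor, so a difference between the sums is uncertain. No defining marker of any list is listed at 0, since the lowest value in the table is 3.15. The part of these cell types in the values of the subunit genes was not tested.

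**Figure D4:**
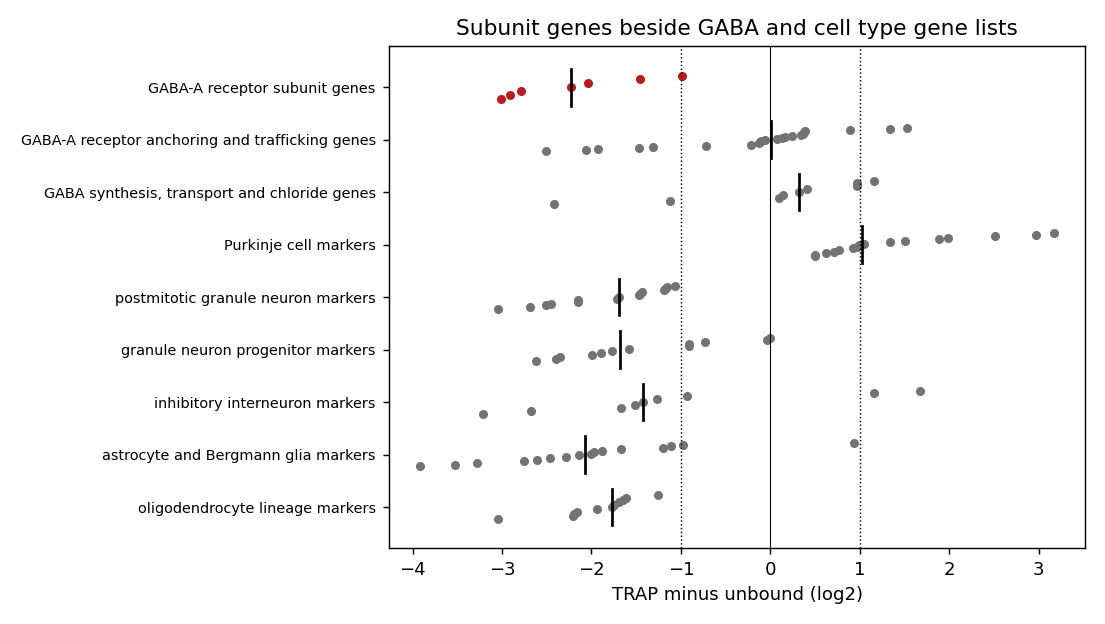
Difference (TRAP minus unbound, log2) of the genes above the floor in 9 lists, 1 point per gene, with a black bar at each list's median and dotted lines at 2-fold. The 7 subunit genes (red) have a median of -2.23, the anchoring and trafficking genes one of 0.01 and the Purkinje cell markers one of 1.02.

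The genes also differ in length, which moved with the difference across the array. Over 10516 genes above the floor with an annotated span, Spearman's rho between span and difference was -0.25, a description across genes that share both arrays. Of the 7 subunit genes, 6 were longer than the median span of 25.5 kb, up to 492 kb for Gabrb1, which had a difference of -3.02. Gabra6 was the exception at 14.6 kb and had a difference of -2.78. Gabrb2 spans 213 kb and had a difference of -0.99. The remaining genes were Gabra3 (224 kb, -1.45), Gabra5 (183 kb, -2.23), Gabra2 (137 kb, -2.91) and Gabra4 (88.6 kb, -2.03). The part of gene length was not tested.

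Annotated neighbours among the 7 genes did not have equal differences in each case. Gabra4 and Gabrb1, the overlapping pair shown above, differed by -2.03 and -3.02. The TRAP values of both lay under the floor, so whether these differences are unequal is uncertain. Gabra6 and Gabrb2 follow each other with no other protein-coding gene between them, and differed by -2.78 and -0.99, with all their values above the floor.

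Likeness to other genes was measured as the distance between points in the plane of the TRAP and unbound log2 values, which rests on 2 arrays only. Only protein-coding genes above the floor were compared. The protein-coding gene nearest to Gabra6 was Mfap4, with 7.71 in TRAP and 10.49 in unbound, at a distance of 0.0037, and 4 genes lay within 0.25. Nearest to Gabra2 was Nusap1, with 5.65 in TRAP and 8.61 in unbound, and 11 genes lay within 0.25. Gabrb1 stood most apart, with 1 gene, Rbl1, within 0.25 (5.05 in TRAP and 7.73 in unbound). The TRAP value of Gabrb1 lay 2.18 below the floor, so its place in the plane is uncertain. The same holds for Gabra2, Gabra3, Gabra4 and Gabra5, whose TRAP values also lay under the floor. Within 0.25 of Gabra3 lay 101 genes, the nearest being Nebl, and within 0.25 of Gabrb2 lay 126, the nearest being Rabl2. Fbxo5 was nearest to Gabra4 among 52 genes within that distance and Kif20a nearest to Gabra5 among 45.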

How the data were processed

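The authors deposited log2 values, 1 for each probe set on each array. The submitters' processing notes name Affymetrix Power Tools. Its version, background correction and normalization steps were not given in the sources used here, nor was the log base. As natural logs the highest value would be a signal of 847885, beyond the 65535 of a 16-bit scanner, so log2 was taken. Values were used as deposited. Gene names came from the platform annotation (20999 with 1 gene, 91 with several, left out, and 1007 unnamed), and 20959 matched RefSeq (GRCm38.p6) by Entrez identifier. Probe sets were averaged per gene. No build is stated for the values; the coordinates printed are those of the RefSeq promoter table.

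Differences, percentiles and counts were computed with Python 3.11.15, pandas 2.3.3 and statsmodels 0.14.6 (loess span 0.3). The differences and the 2-fold counts, without a floor, were also tested on simulated data. Percentiles and floors were not tested in this way. The number of arrays, 2 in all, limits the precision. Other settings were median subtraction, quantile normalization, loess, the brightest probe set, floors left out, set at the 75th percentile (9.01) or applied to the mean, and thresholds of 1.5-fold and 4-fold. The genes and lists were chosen with earlier results of these data known. Named are all 7 genes, the other measured subunits, Pcp2 and Rpl10a, up to 4 genes per list from its ends and up to 2 nearest genes each. Gphn, Abat, Gabbr1 and Slc12a5 fall outside this rule and were named after their values were seen. Some subunit genes are not reported here.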

Additional observations from a re-analysis of the deposited data

How the results depend on the processing

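Of 28 values of single subunit genes under another scaling or probe set rule, 28 were lower in TRAP and 27 stayed on the same side of 2-fold. The exception was Gabrb2, at -1.15 with the brightest probe set. The count of genes at least 2-fold lower in TRAP was 6 as reported and with no floor, 5 with the floor applied to each gene's mean or at 4-fold, and 7 at 1.5-fold. The count at 4-fold (2 on the log2 scale) holds on the deposited scale only. Gabra4 was -1.70 with the array medians subtracted, -1.79 after quantile normalization and -1.87 after loess, and Gabra5 was -1.90 with the medians subtracted. It was 1 of 2 with the floor at the 75th percentile, since Gabra6 and Gabrb2 alone passed that floor. The shares of all genes at least 2-fold lower were 11.0% with no floor and 17.2% with the higher floor, while 4.34% were at least 4-fold and 30.9% at least 1.5-fold lower. The brightest probe set left Gabrb2 first of the 7 in signal on the TRAP array and second on the unbound array. No paired analysis was possible because each fraction has 1 array. With no detection calls, the 5 TRAP values under the floor may be bounds, and a fold from them is uncertain.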

Other observations

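A list of genes for GABA synthesis and transport, GABA-B receptors and chloride cotransporters is given beside the receptor subunit genes, with no test of a difference between them. Of 10 listed genes 9 had a value, 7 of them higher in TRAP, as were 4644 of the 10524 genes above the floor. By 2-fold or more, 1 of the 9 was higher in TRAP and 2 were lower, against 8.11% and 18.6% of all genes above the floor, and the median difference was 0.32 (0.65 with the array medians subtracted). With the array medians subtracted 3 were higher and 1 was lower, against 16.4% and 11.6% of all genes. After quantile normalization or removal of the loess trend 1 was higher and 1 lower. Abat, the GABA transaminase gene, named after its value was seen, was among the 7, but its difference of 0.14 turned to -0.01 after removal of the loess trend. Slc32a1, the vesicular GABA transporter gene, read 9.70 in TRAP and 8.54 in unbound. Gad1, encoding a GABA-synthesising enzyme, read 11.78 in TRAP and 10.81 in unbound. Gabbr1, a metabotropic GABA-B receptor subunit gene named after its value was seen, read 11.41 in TRAP and 10.45 in unbound.

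The members of that list lower in TRAP were Slc12a2 and Slc6a11. Slc12a2, encoding the chloride importer NKCC1, read 6.64 in TRAP and 9.06 in unbound, a difference of -2.42. Slc6a11, a GABA transporter gene of astrocytes, read 7.47 in TRAP and 8.59 in unbound, a difference of -1.12. It fell short of 2-fold with the array medians subtracted (-0.79), after quantile normalization (-0.79) and after removal of the loess trend (-0.93). In each of these scalings 1 gene of the list was at least 2-fold lower. Slc12a2 and Slc6a11 lie within the range of the 7 receptor subunit genes, -3.02 to -0.99. Of all genes above the floor, 18.8% had a difference lower than the upper end of that range, so lying in it is common. Slc12a5, encoding the chloride exporter KCC2 and named after its value was seen, read 8.88 in TRAP and 8.78 in unbound.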
